A study of Mus musculus with 2 samples.

Results

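Integrins are the transmembrane receptors by which epithelial cells hold on to basement membrane and matrix, and 10 mouse integrin subunit genes were followed here in stomach cells that carry or lack CD133 on their surface. Every non-control spot whose gene name in the scanner files was Itga2, Itga3, Itga5, Itga6, Itgav, Itgb1, Itgb4, Itgb5, Itgb6 or Itgb8 was taken, which gave 36 spots of 27 probes out of 43379 non-control spots of 41174 probes. Of these, 19 probes of 9 genes were bright enough to be tested, and Itgb8 was not among them. RNA of CD133-positive GIF-5 cells was set against RNA of CD133-negative cells of the same line. GIF-5 is a mouse gastric epithelial line, and cells of both fractions have the genotype Runx3-/-p53-/-, so the comparison holds no cells with either gene intact. Cells grown in serum-containing medium were brought into suspension and sorted with an antibody against CD133, a membrane glycoprotein encoded by Prom1 and often used to mark stem-like cells. Each of 2 two-colour arrays carried CD133-positive RNA in Cy3 and CD133-negative RNA in Cy5. The labels call the arrays biological replicates without naming separate cultures or sorts, so p-values measure the spread between these arrays, which may be technical, and with no dye swap a dye effect and the fraction cannot be told apart.

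An integrin is a pair of 1 alpha and 1 beta chain, and the pairing decides what it binds. The alpha3 and alpha6 chains form laminin receptors, with beta1 or, for alpha6, with beta4, which anchors keratin filaments at hemidesmosomes. The alpha2 chain pairs with beta1 to bind collagen, alpha5 pairs with beta1 to bind the RGD tripeptide of fibronectin, and alphav pairs with beta1, beta5, beta6 or beta8 to bind vitronectin, fibronectin and the latent form of TGF-beta. Epithelial cells use these receptors for adhesion, spreading, migration and survival signals. The arrays measured RNA of each chain, not the assembled receptor at the surface.

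Gene positions are those of the RefSeq annotation of mouse build GRCm38.p6. A probe is called detected in a fraction where the scanner program marked it as well above background there. Levels are normalised log2 intensities of 1 probe, comparable between fractions for that probe but not between genes. A ratio is the log2 difference, CD133-positive minus CD133-negative, given as the mean of 2 arrays ± the moderated SE, and adjusted p-values come from limma over all 15268 tested genes with Benjamini-Hochberg adjustment, two-sided. Prom1 had a ratio of 3.78 ± 0.14 (n = 2, limma adjusted p = 0.0097), at least 12.0-fold higher in CD133-positive cells, since CD133-negative cells gave no detected signal for it on the arrays. This checks the labels and is no finding. Runx3 and Trp53, disrupted in all cells of the line, had ratios of 0.05 ± 0.14 and -0.05 ± 0.14, and where their probes lie relative to the disrupted parts was not analysed here. Between 23498 and 25213 non-control spots were detected in each channel of each array. Of the epithelial and stomach markers looked up, 15 of 17 had a probe detected on at least 1 array, among them the keratins Krt8, Krt18 and Krt19 and the gastrokine Gkn2, while Sox2 had none and Muc5ac no probe of that name. The ratios of Krt8, Krt18 and Krt19 were -0.78, -0.54 and -0.79. Of the 14 tested, 3 passed (limma) and all rose, namely Gkn2, Tff1 and Muc1. Above 0 on both arrays were 10, and 3, the keratins, were below, against 32.6% and 39.7% of all tested genes. Gkn1 and Pgc, among the 10, were tested only through their CD133-positive signal. At an unadjusted p under 0.05 in limma, 7 were higher and 3 lower, against 11.9% and 16%. The median ratio of the 14 was 0.98, with 1.21 on array 1 and 0.50 on array 2. The summed linear intensity of the 14 was 368033 and 267978 in CD133-positive cells, against 331565 and 338869 in CD133-negative cells. Such a sum is set mostly by the brightest probes, among them those of the 3 keratins.

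Of the 9 tested integrin genes, those that stood lowest in CD133-positive cells were the alpha chains Itga5, Itgav and Itga3, each with a mean ratio that corresponds to a level more than 2-fold lower. The beta chains Itgb5 and Itgb1 and the alpha chain Itga2 lay between them and 0, and Itgb6 and Itgb4 lay near 0. Itga6 was above 0 on both arrays, with a mean of 0.26, about as far from 0 as Itga2 at -0.26. No integrin gene passed the adjusted threshold of 0.05 in limma, so 0 of 9 were called, against 1.65% of all tested genes, made up of 1.38% called higher and 0.269% called lower. At an unadjusted p under 0.05, 4 of 9 were lower in limma, namely Itga3, Itgav, Itga5 and Itgb5, and 0 were higher, against 16% and 11.9% of all tested genes. The ratio was below 0 on both arrays for 6 of 9 and above 0 on both for 1, against 39.7% and 32.6% of all tested genes. For 6 of 9 both CD133-positive levels lay below both CD133-negative levels and for 0 above, against 34.6% and 27.6% of all tested genes. Itga2 is among the 6 in each count, and it was tested only through its CD133-negative signal. With both channels required to be detected, which leaves Itga2 out, 5 of 8 were below 0 on both arrays and 1 above. The median ratio of the 9 was -0.37, with -0.28 on array 1 and -0.35 on array 2, and that of all tested genes was -0.03. In bulk RNA of a sorted fraction, fewer cells that make a transcript and less transcript per cell cannot be told apart.

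**Figure D1:**
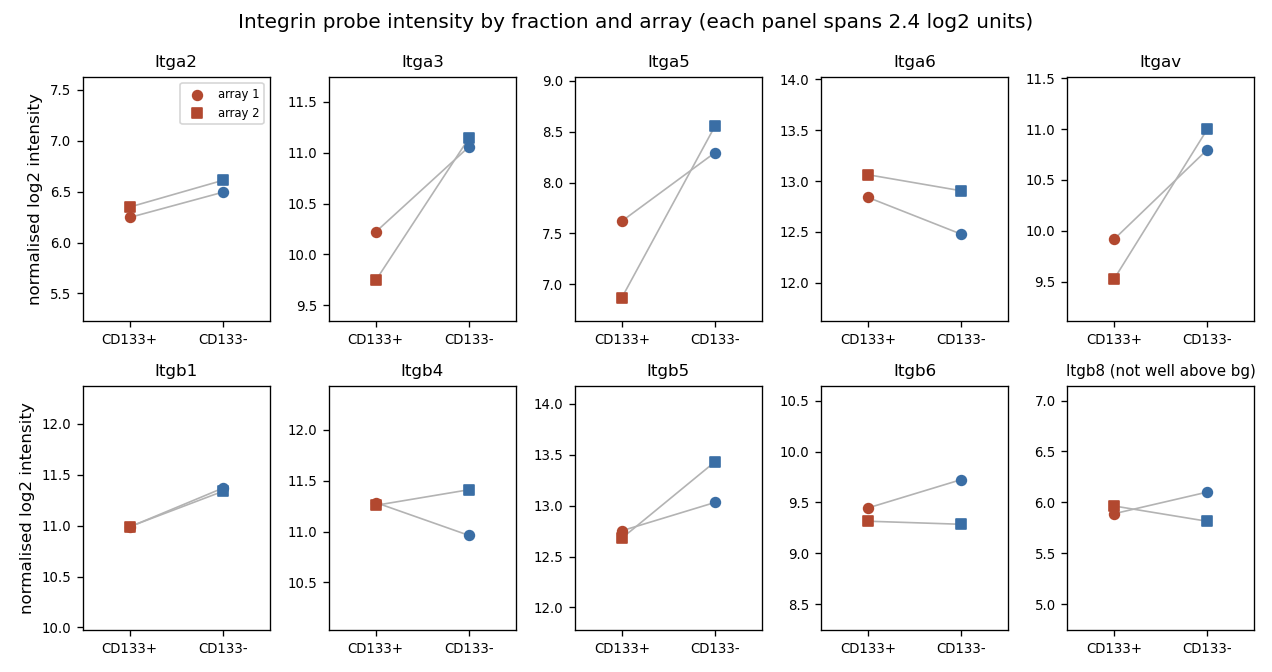
Normalised log2 intensity (vertical axis) of the probe that represents each integrin gene in CD133-positive cells (left) and CD133-negative cells (right) of each panel, with circles for array 1 and squares for array 2, lines joining the fractions of an array, and every panel spanning the same number of log2 units. Itga3, Itga5 and Itgav show the steepest lines, and for Itgb8 the probe with the brightest CD133-negative spot on array 1 is drawn, which was not detected.

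Itga5 (chr15:103344286-103366791), the alpha chain of the classical fibronectin receptor, had levels of 7.62 and 6.87 in CD133-positive cells on arrays 1 and 2, against 8.30 and 8.56 in CD133-negative cells. Both CD133-positive levels were below both CD133-negative levels, but the gap on array 2 was the wider by far. The ratios were -0.67 and -1.69, with a mean of -1.18 ± 0.29 (n = 2, limma adjusted p = 0.11). This gene rests on 1 probe, so no other probe could be set beside it, and with the deposited processed signals its mean was -1.87.

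Itgav (chr2:83722303-83806917), the alpha chain shared by the vitronectin receptors and the activators of latent TGF-beta, had levels of 9.92 and 9.53 in CD133-positive cells, against 10.80 and 11.00 in CD133-negative cells. The fractions did not overlap, and the CD133-positive fraction was the lower on each array. Its ratios of -0.88 and -1.47 gave a mean of -1.18 ± 0.20 (n = 2, limma adjusted p = 0.082), or a 2.26-fold lower level. A second, dimmer Itgav probe gave -0.52 and -0.50, the same direction at a smaller size. That size depended on the processing: with the deposited processed signals its mean was -1.04, against -1.21 for the first probe. Another 2 probes named Itgav were detected in neither fraction.

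Itga3 (chr11:95044475-95076844), a laminin receptor chain of epithelial cells, had levels of 10.22 and 9.74 in CD133-positive cells, against 11.06 and 11.14 in CD133-negative cells. Again the fractions did not overlap. The ratios were -0.84 and -1.40, with a mean of -1.12 ± 0.20 (n = 2, limma adjusted p = 0.082), a 2.17-fold lower level. Its 3 probes all lay below 0 on both arrays: the next gave -0.79 and -1.38, almost the values of the first, and the dimmest gave -0.23 and -0.70. With the deposited processed signals the mean of the dimmest was -0.73, against -1.15 for the first.

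For all 3 genes the ratio of array 2 was the lower. On array 2, 3 of 9 integrin genes were at least 2-fold lower, against 7.91% of all tested genes, and on array 1 none was, against 2.67%. No integrin gene was therefore at least 2-fold lower on both arrays, which 2.12% of all tested genes were. None was at least 2-fold higher, against 3.69% on array 1, 4.19% on array 2 and 2.5% on both. The count at least 2-fold lower on both arrays depended on the processing. It was 1 with the deposited processed signals, Itga2 at -1.11 and -1.07. With median centring in place of loess it was 5, where the median of all tested genes was -0.74. Among all tested genes ranked from lowest to highest mean ratio, Itga5 stood at percentile 3.20, Itgav at 3.23 and Itga3 at 3.75. By array 1 alone these were percentiles 7.75, 3.94 and 4.47, and by array 2 alone 2.58, 3.73 and 4.16.

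**Figure D2:**
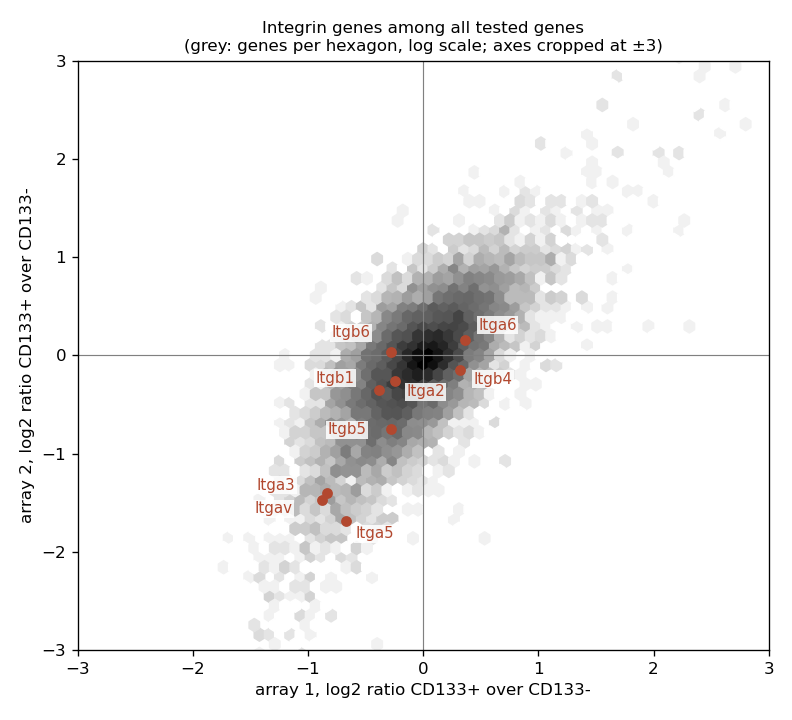
Log2 ratio of CD133-positive over CD133-negative cells on array 1 (horizontal axis) and array 2 (vertical axis) for all tested genes, with grey hexagons shaded by the log of the number of genes and red points for the 9 tested integrin genes. Itga3, Itgav and Itga5 sit toward the lower left of the cloud, with other genes beyond them, and Itgb6, Itgb4 and Itga6 near its centre, with both axes cropped at 3 log2 units either side of 0.

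The start-site sequences of these 3 genes are shown because theirs were the lowest ratios among the 9 tested integrin genes, and they and the motifs were chosen after those ratios were seen. RefSeq windows of build GRCm38.p6 were available for 8 of the 10 genes, and the 250 bases before the start site that this table uses are printed 5′ to 3′ on the gene's own strand. That start need not be the outermost one of the gene positions given here: the window of Itgav lies wholly inside the gene's span, that of Itga3 lies partly inside it, and that of Itga5 lies just before it. Capitals mark any match, on either strand, to the letters of an SP/KLF box (GGGCGG), an AP-1 site (TGANTCA), the E-box read by Snail and Zeb factors (CAGGTG), a RUNX core (TGTGGT), a TEAD core (GGAATG) or a TATA box (TATAAA), none of which overlapped another in these windows.
Itga5, chr15:103366792-103367041, minus strand: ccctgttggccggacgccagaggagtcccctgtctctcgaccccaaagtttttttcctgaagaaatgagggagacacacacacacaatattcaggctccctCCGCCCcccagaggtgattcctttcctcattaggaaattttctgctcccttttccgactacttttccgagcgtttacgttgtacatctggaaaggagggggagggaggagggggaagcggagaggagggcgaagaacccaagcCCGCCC
Itgav, chr2:83724147-83724396, plus strand: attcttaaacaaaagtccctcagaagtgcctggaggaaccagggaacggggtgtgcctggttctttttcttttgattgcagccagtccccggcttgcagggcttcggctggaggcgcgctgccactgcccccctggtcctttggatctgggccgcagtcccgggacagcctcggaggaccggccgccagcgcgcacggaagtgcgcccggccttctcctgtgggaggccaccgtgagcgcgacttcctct
Itga3, chr11:95076715-95076964, minus strand: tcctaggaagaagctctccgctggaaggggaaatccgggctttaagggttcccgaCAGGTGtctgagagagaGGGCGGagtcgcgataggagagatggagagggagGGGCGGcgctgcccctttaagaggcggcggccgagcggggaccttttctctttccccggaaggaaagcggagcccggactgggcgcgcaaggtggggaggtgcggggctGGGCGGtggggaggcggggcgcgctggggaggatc

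The window of Itga3 held 3 SP/KLF boxes and 1 E-box, that of Itga5 held 2 SP/KLF boxes, and that of Itgav held no match, so it has no capitals. The SP/KLF letters were found in 4 of 8 integrin windows, against 32.7% of 32817 RefSeq windows of that length. The E-box letters were found in 3 of 8, those of Itga3, Itgb5 and Itgb8, against 17.2% of all windows, and the TEAD letters in 1, that of Itgb1, against 12.6%. The RUNX, AP-1 and TATA letters were in none of the 8, against 14%, 6.75% and 12.4% of all windows. GC content was 67.6% for Itga3, 64.4% for Itgav and 55.6% for Itga5, and the median over all windows was 52.4%. These matches describe letters in a short window and say nothing about which factors bind there.

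Among the beta chains of the 9 tested genes, Itgb5 had the lowest mean ratio. Itgb5 (chr16:33829665-33949338), which pairs with alphav alone, had levels of 12.75 and 12.68 in CD133-positive cells, against 13.03 and 13.43 in CD133-negative cells. The fractions did not overlap, and most of the spread was on the CD133-negative side. The ratios were -0.28 and -0.75, with a mean of -0.52 ± 0.18 (n = 2, limma adjusted p = 0.18), from the single Itgb5 probe.

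Itgb1 (chr8:128685654-128733579), the common partner of alpha2, alpha3, alpha5, alpha6 and alphav, was measured on many spots. Its main probe was printed on 10 spots of each array, of which 7 on array 1 and 9 on array 2 carried no outlier flag and were averaged. The SD of the ratio among those spots was 0.032 on array 1 and 0.027 on array 2. Its levels were 10.99 and 10.99 in CD133-positive cells, against 11.37 and 11.34 in CD133-negative cells. The fractions did not overlap and the gap was nearly the same on each array, with ratios of -0.38 and -0.35 and a mean of -0.37 ± 0.14 (n = 2, limma adjusted p = 0.19). A second probe, printed once, gave -0.48 and -0.39, and it would stand for the gene if any flagged spot removed a probe, at a mean of -0.44. The remaining Itgb1 probe was detected in neither fraction.

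Itga2 (chr13:114833081-114932100), the collagen receptor chain, was dim. Its levels were 6.25 and 6.35 in CD133-positive cells, where it was detected on array 2 alone, against 6.50 and 6.61 in CD133-negative cells, where it was so on both arrays. The ratios were -0.25 and -0.26, with a mean of -0.26 ± 0.14 (n = 2, limma adjusted p = 0.31). With the deposited processed signals, which differ in background subtraction, detrending and dye normalisation together, the mean was -1.09. With an offset of 16 in place of 50 it was -0.46, and without background correction it was -0.27. The second Itga2 probe was not detected.

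The chains of the hemidesmosome pair, Itga6 and Itgb4, had mean ratios above 0, and neither passed the threshold. Itga6 (chr2:71786886-71858427) had levels of 12.84 and 13.06 in CD133-positive cells, against 12.48 and 12.90 in CD133-negative cells. The ranges overlapped, since the CD133-negative level of array 2 was above the CD133-positive level of array 1, but within each array CD133-positive cells were the higher. The ratios were 0.36 and 0.16, with a mean of 0.26 ± 0.15 (n = 2, limma adjusted p = 0.33). The other 2 probes were mixed in sign: one gave 0.19 and -0.0037, and the other, the dimmest, -0.07 and 0.61.

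Itgb4 (chr11:115974725-116008412), the only beta4 gene and a partner of alpha6 alone, had levels of 11.29 and 11.26 in CD133-positive cells, against 10.96 and 11.41 in CD133-negative cells. CD133-positive cells were the higher on array 1 and the lower on array 2. The ratios were 0.32 and -0.15, with a mean of 0.08 ± 0.18 (n = 2, limma adjusted p = 0.82). Its second probe repeated this with 0.37 and -0.05, and its dimmest, designed to another transcript accession and far dimmer, gave 0.57 and 0.26.

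Itgb6 (chr2:60598292-60722603), the epithelial partner of alphav, had levels of 9.45 and 9.31 in CD133-positive cells, against 9.72 and 9.28 in CD133-negative cells. The fractions overlapped and the direction differed between arrays, with ratios of -0.28 and 0.03 and a mean of -0.12 ± 0.16 (n = 2, limma adjusted p = 0.67). Its 3 probes disagreed: the second gave -0.35 and 0.41, and the dimmest 0.26 and 0.39. Itgb8 (chr12:119162803-119238276), another alphav partner, had 4 probes, and none was detected in either fraction, so nothing can be said of a difference.

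**Figure D3:**
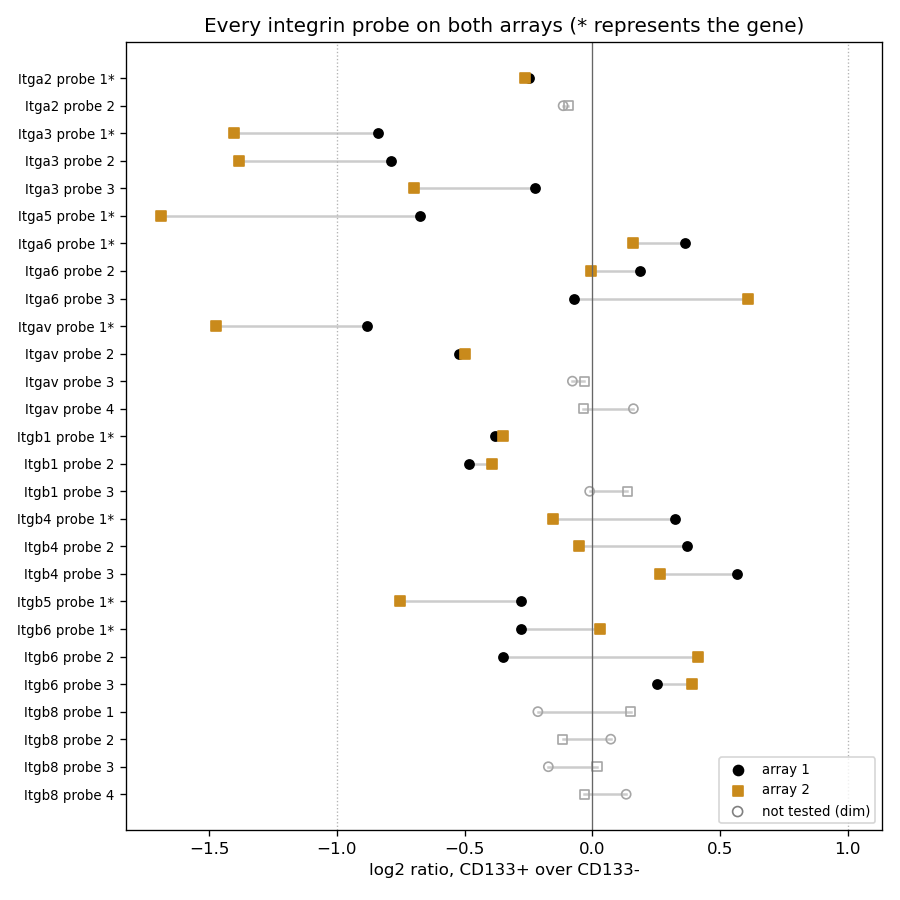
Log2 ratio of CD133-positive over CD133-negative cells (horizontal axis) for each of 27 integrin probes (rows), with circles for array 1, squares for array 2 and open symbols for probes too dim to be tested. Every tested probe of Itga3, Itgav and Itgb1 lies left of 0 on both arrays, and those of Itga6, Itgb4 and Itgb6 lie on either side.

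In the order of mean ratios, most neighbours could not be separated by their spread. The array values of Itga5, Itgav and Itga3 overlapped, with mean ratios 0.0044 and 0.06 apart. Between Itga3 and the next gene, Itgb5, the gap was 0.60, larger than the SD of either, and their array values did not overlap. From Itgb5 upward each neighbouring pair overlapped except Itgb1 and Itga2, 0.11 apart, whose values did not. The order of that pair depended on the processing of the dim Itga2 probe. With an offset of 16, Itga2 was at -0.46 and Itgb1 at -0.35, and with the deposited processed signals at -1.09 and -0.35. Across all 19 tested probes, 10 were below 0 on both arrays, 3 were above 0 on both and 6 differed in sign.

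The scaling set where 0 lies. With median centring of all probes in place of loess, the median of all tested genes was -0.74, and 8 of 9 integrin genes were called lower in limma, beside 9624 genes of all kinds. Relative to that median, Itgav stood at -1.33, Itga3 at -1.29 and Itga5 at -1.03, while Itga6 stood at -0.05, Itgb4 at -0.12 and Itga2 at 0.41. With the values as reported, the same differences from the median of all genes were -1.15, -1.09 and -1.15 for Itgav, Itga3 and Itga5, 0.29 for Itga6, 0.12 for Itgb4 and -0.23 for Itga2. The signs of Itga6, Itgb4 and Itga2 relative to all genes thus turned with that scaling, and those of the other tested integrins did not.

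**Figure D4:**
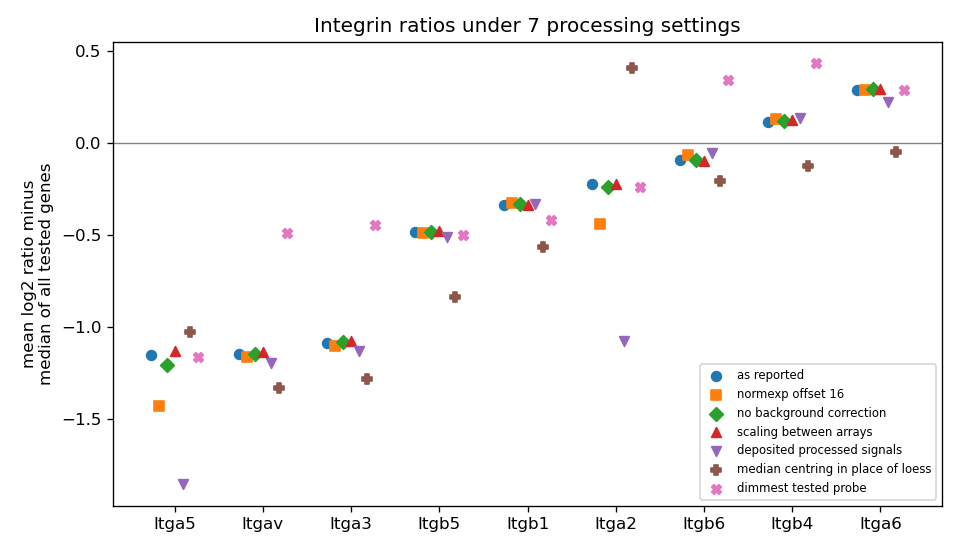
Mean log2 ratio minus the median of all tested genes (vertical axis) for the 9 tested integrin genes (horizontal axis) under 7 processing settings, 1 symbol each. Itga5, Itgav and Itga3 are lowest under each setting but that of the dimmest probes, where Itga3 at -0.44 and Itgav at -0.49 lie above Itgb5 at -0.50, and Itga2 reaches -1.08 with the deposited processed signals.

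Of 18 other integrin subunit genes looked up, 10 were tested and none passed (limma), against 1.65% of all tested genes. At an unadjusted p under 0.05 in limma, 4 were lower and 0 higher, against 16% and 11.9% of all tested genes. Among these 4, Itga11 and Itgb7 were tested only through their CD133-negative signal. The median ratio of the 10 was -0.13, which was -0.04 on array 1 and -0.33 on array 2. The 3 with the largest ratios were all lower on both arrays. Itgb3, the beta3 chain that pairs with alphav, had levels of 9.67 and 8.64 in CD133-positive cells, against 10.97 and 11.92 in CD133-negative cells. The fractions did not overlap, and the mean ratio was -2.29 ± 0.52 (n = 2, limma adjusted p = 0.10). Itga11, a fibroblast collagen receptor chain that CD133-positive cells gave a detected signal for on 1 array alone, was at -1.30 ± 0.19, and the collagen receptor chain Itga1 was at -0.95 ± 0.19, neither past the threshold. Of the leukocyte chains, Itgal, Itgb2 and Itgae had mean ratios between 0.04 and 0.05. Their signals were dim, at levels from 6.52 to 6.83, so equal RNA cannot be read from these ratios. Itgam and Itgax had no detected probe. Itgb7, the beta chain that pairs with alphaE, had ratios of -0.38 and -0.88 with a mean of -0.63 ± 0.19 and did not pass (limma adjusted p = 0.14), and CD133-positive cells gave a detected signal for it on 1 array. These leukocyte chains are named outside the rule, for their cell type, after their values were seen.

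The genes that integrins work with were grouped by role. The counts of each list stand beside these shares of all tested genes. Below 0 on both arrays were 39.7% and above 0 on both 32.6%. At an unadjusted p under 0.05 in limma, 16% were lower and 11.9% higher. At least 2-fold higher on both arrays were 2.5% and 2-fold lower 2.12%, and 1.65% passed the adjusted threshold. Some genes counted below 0 in these lists were tested only through their CD133-negative signal, namely Tgfb1i1, Parvb, Krt5, Col6a2, Edil3, Tnc and L1cam. Among 20 tested focal adhesion kinases and adaptors, 17 were below 0 on both arrays and 1 above, with a median of -0.39, and 9 were lower and 0 higher at an unadjusted p under 0.05 in limma. Asap1, which turns off Arf GTPases at adhesions, fell, with levels of 9.35 and 9.29 in CD133-positive cells, against 10.93 and 11.18 in CD133-negative cells. It was the one gene of that list that passed, at -1.74 ± 0.16 (n = 2, limma adjusted p = 0.039). Cav1, the caveolar scaffold, was at -2.59 ± 0.44 and Lpp, a zyxin relative, at -1.17 ± 0.16, and neither passed. The focal adhesion kinase gene Ptk2 was at -0.67 ± 0.15 without passing. It is named outside the rule for its role, after its value was seen.

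Among 27 tested activators, inhibitors and actin linkers, 15 were below 0 on both arrays and 6 above, with a median of -0.29, and none passed (limma; 6 lower and 1 higher at an unadjusted p under 0.05). The list held genes of opposite sign. Tns1, a tensin that ties beta tails to actin, was at -2.27 ± 0.39, with levels of 10.52 and 9.12 in CD133-positive cells, against 12.07 and 12.12 in CD133-negative cells. Tln2, a talin that opens integrins from inside, was at 1.48 ± 0.24, with levels of 9.49 and 10.24 in CD133-positive cells, against 8.40 and 8.37 in CD133-negative cells. Lims2 was at -1.73 ± 0.48.

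Among 7 tested hemidesmosome and laminin-332 genes, 5 were below 0 on both arrays and none above, with a median of -0.29, which was -0.10 on array 1 and -0.45 on array 2, and none passed (limma; 2 lower and 0 higher at an unadjusted p under 0.05). Plec, the plectin that joins the beta4 tail to keratins, was at -1.09 ± 0.14 with nearly equal values on the arrays, -1.07 and -1.12 (limma adjusted p = 0.062). Lamb3, a laminin-332 chain, was at -1.84 ± 0.46 and Dst, the other plakin of the hemidesmosome, at -0.88 ± 0.33.

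Of the ligands, 14 tested RGD-type genes and their relatives had a median ratio of -0.82, with -0.47 on array 1 and -1.25 on array 2, and 13 were below 0 on both arrays. None passed (limma; 9 lower and 0 higher at an unadjusted p under 0.05). Edil3, Tnc and L1cam, among the 13, were not detected in CD133-positive cells and were tested only through their CD133-negative signal. Thbs1, which encodes thrombospondin-1, had levels of 9.18 and 8.12 in CD133-positive cells, against 10.76 and 10.47 in CD133-negative cells, a ratio of -1.96 ± 0.24 (n = 2, limma adjusted p = 0.061). Ltbp1, the matrix carrier of latent TGF-beta, was at -1.77 ± 0.36, and Spp1, osteopontin, at -3.58 ± 0.71 with array values far apart, -2.22 and -4.95. The laminin and collagen ligands split: of 11 tested, 5 were above 0 on both arrays and 5 below, with a median of 0.08, which was -0.01 on array 1 and 0.03 on array 2. At an unadjusted p under 0.05 in limma, 4 were higher and 4 lower, and a difference of 2-fold or more on each array was seen upward in 3 and downward in 2. Those that rose were Col4a1, Lamb1 and Col4a2, chains of basement membrane collagen IV and laminin, at 2.27 ± 0.15, 2.19 ± 0.14 and 1.87 ± 0.15 (n = 2 each, limma adjusted p of 0.024, 0.023 and 0.031). Col5a1, a chain of fibrillar collagen V, had the ratio farthest from 0 in that list, -2.57 ± 0.37, with levels of 8.73 and 7.58 in CD133-positive cells, against 10.62 and 10.84 in CD133-negative cells, and did not pass (n = 2, limma adjusted p = 0.068). Col1a1, of collagen I, was at -1.25 ± 0.18 without passing. Both are named outside the rule, after their values were seen.

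Membrane partners and trafficking genes had a median of 0.02 over 21 tested, which was 0.17 on array 1 and -0.18 on array 2, so its sign differed between the arrays. Of them, 8 were above 0 and 9 below on both arrays, and 3 were higher and 6 lower at an unadjusted p under 0.05 in limma. Dab2, an endocytic adaptor for beta chains, rose, with levels of 13.27 and 13.96 in CD133-positive cells, against 9.56 and 9.13 in CD133-negative cells. The fractions lay far apart, with a ratio of 4.27 ± 0.32 (n = 2, limma adjusted p = 0.028). Clic4, which takes part in the recycling of beta1, was at -1.28 ± 0.19 and the hyaluronan receptor Cd44 at -1.13 ± 0.25, without passing.

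**Figure D5:**
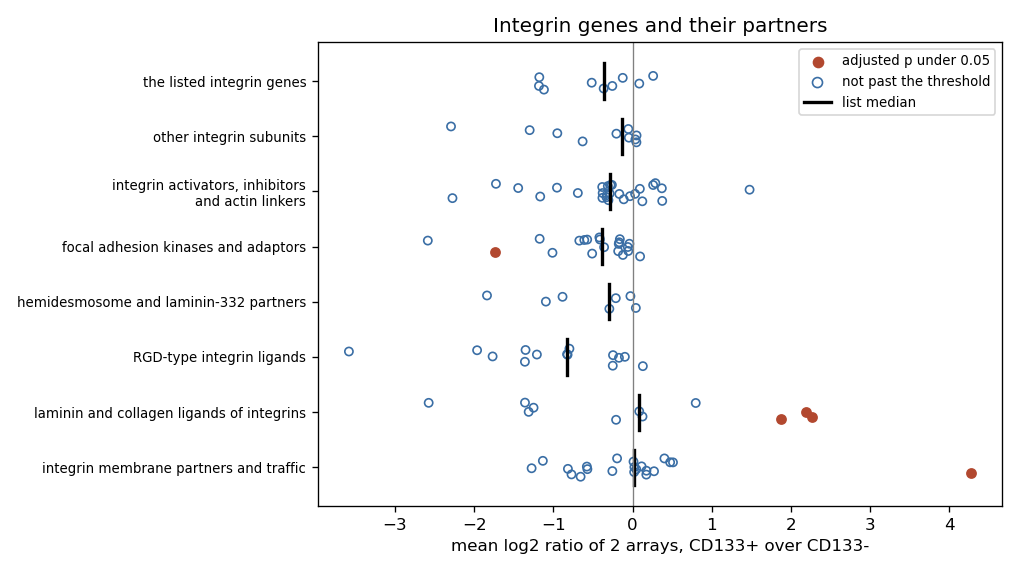
Mean log2 ratio of 2 arrays, CD133-positive over CD133-negative cells (horizontal axis), for each tested gene of the integrin list and of 7 lists of partners (rows), with filled red points for genes past the adjusted threshold, open points for the others and black bars for list medians. The RGD-type ligands have the lowest median, -0.82, and the filled points to the right are Col4a2, Lamb1, Col4a1 and Dab2.

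Markers of other cell types were read beside these values. Of 8 endothelial markers, 2 had a detected probe and both rose. Vwf was at 3.75 ± 0.15 (n = 2, limma adjusted p = 0.012), and Cdh5, not detected in CD133-negative cells, was at least 5.81-fold higher (limma adjusted p = 0.043). Their summed linear intensity was 1708 and 2466 in CD133-positive cells, against 172 and 191 in CD133-negative cells, while Pecam1, Kdr, Tek, Tie1, Emcn and Erg had no detected probe. Blood cell and platelet markers had a detected probe in 6 of 12, not Ptprc, with summed intensities of 1958 and 1828 in CD133-positive cells, against 1999 and 1805 in CD133-negative cells. These sums are mostly those of Cd14, the brightest of the 6. Above 0 on both arrays were 4 of the 6 and below 0 was 1, against 32.6% and 39.7% of all tested genes. The gene below 0 was Csf1r, at -0.78 and -0.96, which did not pass (limma) and was tested only through its CD133-negative signal. Fibroblast and muscle markers had a detected probe in 4 of 10, not Dcn, Lum, Pdgfra or Pdgfrb, and the 3 tested, Acta2, Tagln and Des, summed to 8834 and 9495 in CD133-positive cells, against 7926 and 8800 in CD133-negative cells. Acta2 makes up most of these sums. The part of other cell types in the integrin values was not tested.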

How the data were processed

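RNA of CD133-positive (Cy3) and CD133-negative (Cy5) cells was measured on 2 arrays of 45018 spots each. The deposited spot and background values are an unnormalised intensity; per the file headers, the scanner program was Agilent Feature Extraction 9.5.3.1. Its processed signals, also deposited, are an intensity after background subtraction, detrending and dye normalisation. The log10 ratio deposited with them is red over green, so CD133-negative over CD133-positive, and equalled the series' value table in all 45018 spots of both arrays. The deposited p-value of a spot comes from the program's error model for 1 array, per the file headers, and was not used. No spot was saturated.

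Intensities were corrected by normexp (offset 50) and normalised by loess within each array, with control spots at weight 0, in limma 3.58.1 (R 4.3.3), and the sign was turned to CD133-positive over CD133-negative. Unflagged spots of a probe were averaged. Keeping a probe with some flagged spots, and not removing it, was decided after the results of both readings were seen. Levels per fraction are after loess and Aquantile. A probe was tested if well above background in 1 channel on both arrays, which 23173 probes were, and the brightest tested probe stood for a gene. The moderated fit had 1 residual and 2.86 prior degrees of freedom. It was tested on simulated ratios. A fold against a fraction not well above background on either array is a lower bound, taken against the higher of the probe's own level and the lowest level well above background on each array. Genes were named from the RefSeq gene table of GRCm38.p6 by accession (22951 probes), by symbol or synonym (9768) or as in the files (8455), except the integrins, which were taken by the files' name. The 2 probes named D430040G12Rik, a synonym of Itgav there, were not counted as Itgav. The named partners were the called genes of each list, up to 6, or the 3 with the largest ratios of the same direction on both arrays where fewer than 3 were called. The integrins and the lists were chosen with earlier results of these data known. The number of arrays limits the precision, and both lay on 1 slide.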

Additional observations from a re-analysis of the deposited data

How the results depend on the processing

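No integrin gene passed the threshold under any alternative tried except median centring of all probes, which called 8 lower with Itga6 at -0.79 and Itgb4 at -0.87, both above 0 as reported; the median of all tested genes was -0.71 from its reported place under that setting. The dimmest tested probe turned Itgb6 to 0.32. The cause was not tested. The median of the integrin genes, -0.37 as reported, was -0.46 with an offset of 16, -0.53 with the processed signals or the value table, -1.31 with median centring, -0.44 with the filter for both channels, which left 8 genes, -0.31 without a filter, where 10 were tested, and -0.44 with the dimmest probe, and ran from -0.35 to -0.28 without either array. Over all genes, 211 were called higher and 41 lower (83.7% higher). These were 404 and 159 (71.8%) with an offset of 16, 274 and 109 (71.5%) without background correction, 390 and 93 with the processed signals or the value table, 484 and 9624 (4.79%) with median centring, 320 and 200 (61.5%) with scaling between arrays, 231 and 73 with the filter for both channels, 29 and 0 without a filter, 144 and 12 with the dimmest probe, 494 and 326 (60.2%) with an intensity trend, and 0 and 0 without moderation, where 1507 had an unadjusted p under 0.05 in limma. Removing a probe for any flagged spot, an alternative added after seeing the data, left 23130 probes, gave 215 and 42, and moved the integrin median to -0.44 because Itgb1 was then read from its second probe. Without one array there is no test. The ratio within each array already pairs the fractions, and no further block by replicate could be fitted with 1 ratio per array. Signal over background limits Itga2 and the size of the Itga5 ratio, and leaves Itgb8 unmeasured.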
